A study of Mus musculus with 18 samples.

Results

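Tumor organoids of the mouse esophagus kept in vehicle were compared with premalignant organoids of the same declared genotype. The comparison took 7 of the 18 bulk RNA-seq libraries of the study, chosen by their labels: 3 libraries of vehicle-treated tumor organoids and 4 libraries of premalignant organoids with a guide against Tgfbr2. The study asked what loss of Tgfbr2 does in esophageal squamous cell carcinoma, and its tables compare guides within a stage or a drug with vehicle; tumor and premalignant organoids stand in separate tables. Organoids are cultures grown as small spheres from single epithelial cells embedded in a basement membrane gel.

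The vehicle libraries were declared as esophageal tumor organoids that lack Trp53, overexpress Myc, carry guides against Cdkn2a and Tgfbr2 and were treated with DMSO. The premalignant libraries were declared with the same Trp53-/-;Myc OE; sgCdkn2a; sgTgfbr2 genotype and no treatment, and came in 2 numbered sets of 2 libraries each, sgTgfbr2_1 (set 1) and sgTgfbr2_2 (set 2). The labels do not say whether these numbers mark guides or lines, from which tumors the organoids came, or whether replicates were separate cultures or animals, so p-values cover the spread among these 7 libraries alone, which may be technical. Per the labels' protocols, all organoids were grown with EGF (50 ng/mL), FGF10, R-spondin 1, Wnt-3A conditioned medium, noggin (100 ng/mL), which binds BMPs, and A83-01 (2 µM), which inhibits the TGF-beta type I receptor. The protocols also list Y-27632 (10 µM) for all of them. Tumor organoids meant for treatment were dissociated, seeded in multiwell plates and grown for 72 h before it. Stage, DMSO, culture format, the deposited table and whatever separates the tables in library preparation coincide with the groups and cannot be told apart.

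TGF-beta signals through a type II receptor, encoded by Tgfbr2, that activates a type I receptor, which phosphorylates Smad2 and Smad3. In squamous epithelia the pathway restrains growth of basal cells and drives matrix genes. Interferons act through complexes that hold Stat2 and Irf9 and bind the interferon-stimulated response element, whereas NF-kB drives neutrophil chemokines and antimicrobial genes.

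Each library held 15334738 to 16479322 counts in vehicle organoids and 15379233 to 21704410 in premalignant organoids over the 24394 gene symbols that the tables share. Both groups were epithelial: summed epithelial cell markers were 10139 to 10312 CPM (the count as a share of the library's sum, on one scale for all libraries) in vehicle organoids and 8941 to 11341 CPM in premalignant organoids, and summed basal squamous genes were 16095 to 16337 CPM in vehicle organoids and 12260 to 17396 CPM in premalignant organoids. In vehicle organoids muscle markers summed to 2.61 to 3.56 CPM, fibroblast markers to 0.875 to 1.76 CPM, endothelial markers to 2.97 to 4.44 CPM and immune markers to 41.3 to 46.6 CPM. In premalignant organoids muscle markers summed to 3.59 to 5.94 CPM, fibroblast markers to 2.34 to 4.75 CPM, endothelial markers to 8.97 to 17.9 CPM and immune markers to 37.0 to 61.9 CPM. Col3a1, Lum, Cd3d, Lyz2, Tyrobp, Emcn, Myod1 and Myog had no count in any of the 7 libraries. The premalignant sets differed in Y-linked genes: Ddx3y had 71.8, 79.0 and 71.4 normalized CPM in vehicle organoids, 63.9 and 68.1 in set 1 and 24.2 and 24.98 in set 2.

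The tables were not made alike. Dhrsx, Pisd-ps3, Tmlhe and Vamp7 had no count in any of the 6 libraries of the table that holds the vehicle libraries and at least 32 counts in each of the 7 libraries of the premalignant table, and Sycp1 and 5830444B04Rik showed the reverse, with 43 to 76 and 16 to 33 counts. Shorter transcripts lay lower in vehicle organoids: the median log2 fold change was -0.23 in the quartile of genes with the shortest annotated length and 0.20 in the longest. Summed RNAs without a poly(A) tail were 99.1 to 105 CPM in vehicle organoids and 55.5 to 66.8 CPM in premalignant organoids. The histone gene Hist1h2bc made up much of this sum. It held 1086 to 1196 of 1519 to 1725 counts in vehicle organoids and 481 to 575 of 937 to 1308 in premalignant organoids. Of 8 members tested 2 were higher, 1 was lower and 5 were not called, so no general rise of such RNAs is shown. The sum did not follow the table alone. It was 104 to 125 CPM in the control-guide libraries of the premalignant table. In the drug-treated libraries of the table that holds vehicle it was 253 to 258 CPM. List medians less the median of genes of like length, and counts without the genes at 0 throughout one table, are given with the results; no value separates the other differences between the tables from the groups.

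Vehicle and premalignant organoids differed in many of the genes tested. Of 13201 genes tested with edgeR's quasi-likelihood test, 3877 (29.4%) were higher and 4013 (30.4%) were lower in vehicle organoids at an adjusted p under 0.05, 59.8% in all; the share was 48.1% to 48.5% without 1 of the vehicle libraries. When the log2 fold change also had to reach 1 in size, 1196 (9.06%) were higher and 1428 (10.8%) lower. All 3 vehicle libraries lay above all 4 premalignant libraries for 4294 genes (32.5%) and below them for 4198 (31.8%). Counts in a gene list are to be read against these shares.

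The split depended on the scale. The trimmed mean of M values (TMM) sets the middle of all genes near no change, with a median log2 fold change of -0.0079. The 10 listed housekeeping genes, such as Psmb4, Vps29 and Vcp, had a median of -0.28 on this scale, with 6 of 10 lower in vehicle organoids, none higher and the other 4 not called. Scaled by their summed counts instead, 7403 genes (56.1%) were higher and 1801 (13.6%) lower, the share of calls that were higher was 80.4% against 49.1% under TMM, and the median over all genes lay at 0.42. Changes are therefore given under TMM. Housekeeping counts stand beside many, but not all, of the lists whose balance that scaling turns. The spread of the premalignant group was mostly between its sets: per degree of freedom, chi-square came to 1.79 to 2.03 among vehicle libraries, 6.42 and 7.10 within the sets and 38.1 to 57.8 between them.

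**Figure D1:**
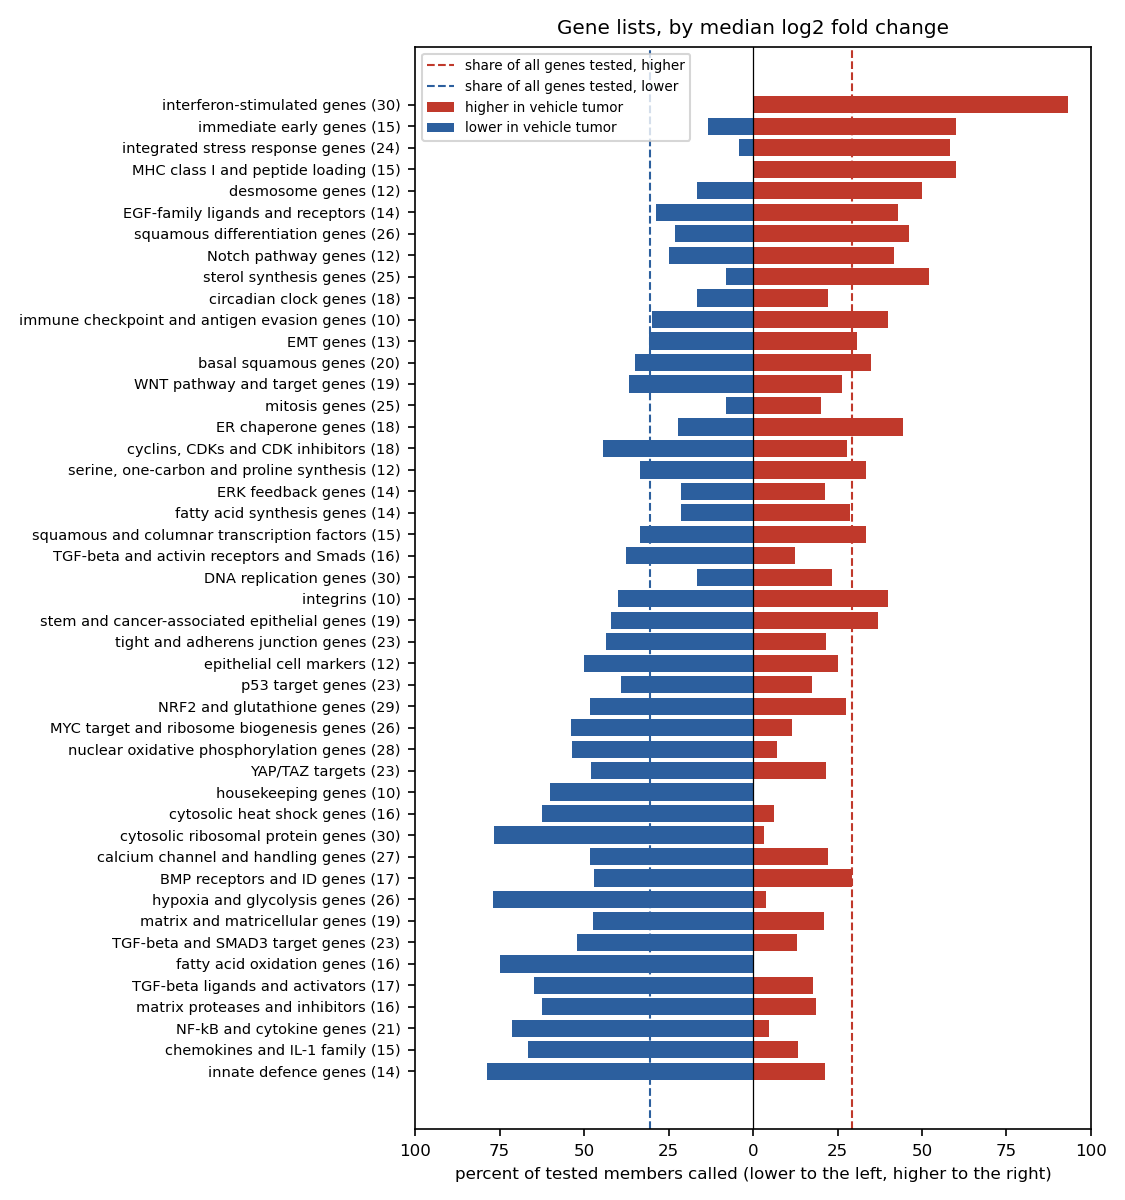
Percent of the tested members of each gene list called at an adjusted p under 0.05, higher in vehicle tumor organoids to the right (red) and lower to the left (blue), for lists of at least 10 tested members (number in parentheses), ordered by median log2 fold change. Dashed lines mark the shares of all genes tested, 29.4% higher and 30.4% lower; interferon-stimulated genes head the order and innate defence genes end it.

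Transcripts of the engineered genes were close in the groups. Tgfbr2, at chr9:116084293-116175360 (GRCm38, the mm10 build), had 90.5, 91.4 and 99.3 normalized CPM in vehicle organoids, against 132 and 134 in set 1 and 108 and 89.6 in set 2. These ranges overlapped, and the difference did not pass (edgeR, log2 fold change -0.31 ± 0.14 (SE), adjusted p = 0.0812); against set 1 alone it was -0.51 and passed, and against set 2 alone it was -0.09 and did not, and it passed without set 2 library 2 (adjusted p = 0.00719). A guide can end the protein without lowering the transcript, so these counts do not check the knockout. Trp53 had 72.2, 68.1 and 71.3 normalized CPM in vehicle organoids, against 63.1 and 69.1 in set 1 and 78.8 and 81.8 in set 2, with overlapping groups (log2 fold change -0.05 ± 0.10 (SE), adjusted p = 0.654); it was at 0.38 and passed under housekeeping scaling (adjusted p = 0.00435), and at -0.19 and passed against set 2 alone. Cdkn2a (log2 fold change -0.31 ± 0.10 (SE), adjusted p = 0.0244) and Myc (log2 fold change -0.43 ± 0.13 (SE), adjusted p = 0.0221) were lower in vehicle organoids under TMM and at 0.13 and 0.01 under housekeeping scaling. The call of Cdkn2a was lost without vehicle library 2 or 3 (adjusted p = 0.0718 to 0.103) and that of Myc without vehicle library 1, 2 or 3 (adjusted p = 0.0607 to 0.0722). Smad3, which carries TGF-beta signals to the nucleus, had 121, 122 and 121 normalized CPM in vehicle organoids, against 174 and 181 in set 1 and 217 and 179.8 in set 2. Every vehicle library lay below every premalignant library (log2 fold change -0.63 ± 0.09 (SE), adjusted p = 3.40e-04; -0.20, adjusted p = 0.0710, under housekeeping scaling).

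Interferon-stimulated genes were the most uniformly raised group in vehicle organoids among the lists examined. Of 30 listed and tested, 28 were higher, none was lower, and the median log2 fold change was 3.06, against -0.0079 over all genes. Their summed level was 2228 to 2247 CPM in vehicle organoids and 484 to 578 CPM in premalignant organoids. The premalignant control-guide organoids (sgScr), in the same table as the premalignant sgTgfbr2 libraries, held 354 to 387 CPM, and pinaverium bromide-treated tumor organoids, in the same table as vehicle, held 1549.6 to 1566 CPM. In bulk libraries, more cells of a state and more RNA per cell cannot be told apart.

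The promoters of 3 members are shown because they carry the core of the interferon-stimulated response element (ISRE), GAAANNGAAA on either strand, in the 250 bases before the start site. Sequences are RefSeq promoters of the GRCm38.p6 assembly, 5′ to 3′ on the gene's strand, the last 150 bases before the start, with the matches in capitals. Isg15 spans chr4:156200819-156200968, minus strand, Ifit1 chr19:34640739-34640888, plus strand, and Oas1a chr5:120907526-120907675, minus strand.
Isg15: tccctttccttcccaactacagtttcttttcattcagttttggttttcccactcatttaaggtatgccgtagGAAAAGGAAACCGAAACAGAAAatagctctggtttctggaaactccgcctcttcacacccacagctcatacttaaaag
Ifit1: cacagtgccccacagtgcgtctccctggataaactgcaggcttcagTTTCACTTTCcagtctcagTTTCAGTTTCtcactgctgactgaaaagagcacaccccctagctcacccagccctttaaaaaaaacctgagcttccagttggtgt
Oas1a: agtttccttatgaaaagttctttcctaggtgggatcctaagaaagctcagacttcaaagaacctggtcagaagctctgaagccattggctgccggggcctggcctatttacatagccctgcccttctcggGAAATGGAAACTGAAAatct
Of the 30 listed genes, 23 matched a RefSeq promoter and 10 of them (43.5%) held the core, against 3.04% of all 27025 promoters and 2.55% of the promoters of genes tested. A match describes the letters only.

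The list holds antiviral effectors and the factors that induce them. Isg15, a ubiquitin-like modifier attached to proteins during antiviral responses (gene at chr4:156199424-156200818), had 54.9, 54.3 and 54.7 normalized CPM in vehicle organoids, against 3.63 and 3.60 in set 1 and 2.74 and 3.04 in set 2 (log2 fold change 4.07 ± 0.11 (SE), adjusted p = 1.39e-07). Ifit1, which binds viral RNA that lacks host cap methylation, had 39.5, 38.9 and 38.6 normalized CPM in vehicle organoids, against 1.12 and 1.83 in set 1 and 1.18 and 1.22 in set 2 (log2 fold change 4.87 ± 0.15 (SE), adjusted p = 2.60e-07). All vehicle libraries lay far above all premalignant libraries for both, although library 2 of set 1 stood apart from the other premalignant libraries in Ifit1. Oas2, which makes the 2′-5′ oligoadenylates that activate RNase L, had 104, 102 and 97.2 normalized CPM in vehicle organoids, against 0.0558 and 0.366 in set 1 and 0 and 0.135 in set 2 (log2 fold change 9.54 ± 0.30 (SE), adjusted p = 2.60e-07). Ifi44 had 41.4, 38.8 and 39.2 normalized CPM in vehicle organoids, against 0.223 and 0 in set 1 and 0.236 and 0.0675 in set 2 (log2 fold change 8.06 ± 0.30 (SE), adjusted p = 6.24e-07). Both were thus close to absent from the premalignant libraries, where 3 counts stand for 0.138 to 0.195 CPM. Mx1 and Rsad2, antiviral effectors, had log2 fold changes of 5.28 and 3.82. Ifit3, Ifit3b, Oas1a and Oas1g, members of near-identical families whose counts may be shared, had 5.66, 5.61, 5.46 and 5.94.

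The transcription factors that carry the interferon signal were raised too. Irf9, the DNA-binding partner of Stat2 (gene at chr14:55603571-55610030), had 85.5, 80.6 and 82.4 normalized CPM in vehicle organoids, against 3.46 and 2.93 in set 1 and 6.37 and 4.86 in set 2 (log2 fold change 4.22 ± 0.21 (SE), adjusted p = 2.28e-06). Irf7, which amplifies interferon production, averaged 112 ± 4.83 normalized CPM in vehicle organoids and 14.5 ± 2.39 in premalignant organoids (SD, n = 3 and 4; log2 fold change 2.96 ± 0.12 (SE), adjusted p = 8.58e-07). Stat2 differed least of these 3, at 1.89, and was higher in set 2 than in set 1. The groups did not overlap for any of them.

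Irf1 went its own way: it had 111, 112 and 112 normalized CPM in vehicle organoids, against 143 and 145 in set 1 and 85.8 and 81.3 in set 2, so the vehicle libraries lay between the sets (log2 fold change -0.02 ± 0.21 (SE), adjusted p = 0.928). Gbp2, an interferon-inducible GTPase, was the other member that did not pass (log2 fold change 0.47 ± 0.31 (SE), adjusted p = 0.222), though it passed without set 1 library 2 (adjusted p = 0.0446). The RNA sensors Ddx58 (RIG-I) and Ifih1 (MDA5) rose by 1.62 and 2.03 on the log2 scale. The list kept its direction against either set, with 28 higher and 1 lower against set 1 and 30 higher and none lower against set 2. Over all genes 37.4% were higher and 37.9% lower against set 1, and 36.5% and 37% against set 2. Its median was 3.49 under housekeeping scaling and 3.06 once the median of genes of like length was taken off.

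**Figure D2:**
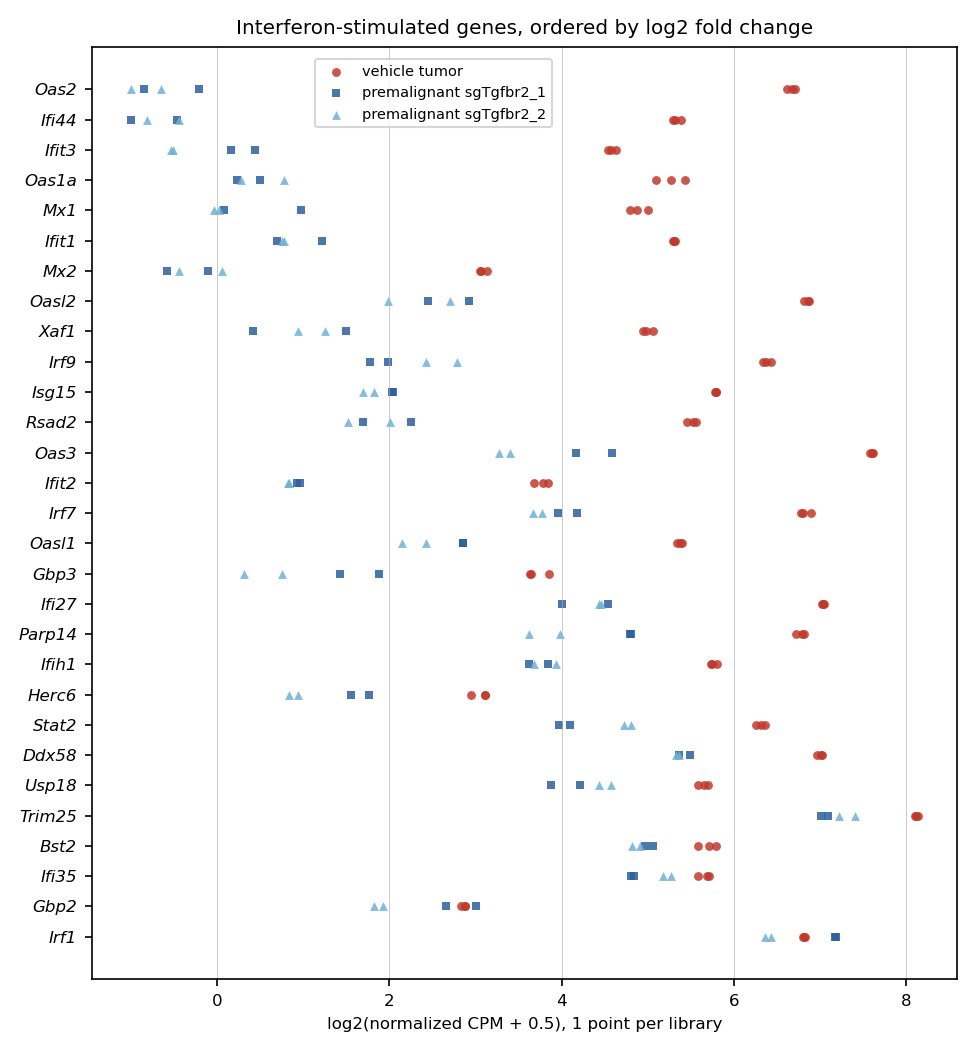
Level of 29 of the 30 tested interferon-stimulated genes in each library, as log2(normalized CPM + 0.5), with vehicle tumor organoids as red circles and the premalignant sets sgTgfbr2_1 and sgTgfbr2_2 as dark squares and light triangles. Vehicle libraries lie to the right of every premalignant library in 27 of the genes shown; in Irf1 they lie between the sets.

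Genes of antigen presentation by MHC class I were partly higher. Of 15 tested, 9 were higher and none lower, with a median of 0.57. Nlrc5, the transactivator of class I genes, had 18.02, 15.1 and 17.8 normalized CPM in vehicle organoids, against 0.279 and 0.427 in set 1 and 0.142 and 0.135 in set 2 (log2 fold change 6.08 ± 0.28 (SE), adjusted p = 1.47e-06). B2m, the invariant light chain, had 430, 417 and 404 normalized CPM in vehicle organoids, against 259 and 283 in set 1 and 208 and 221 in set 2 (log2 fold change 0.78 ± 0.11 (SE), adjusted p = 3.58e-04). Tap1, a peptide transporter, had a log2 fold change of 1.27, and H2-Q4 and H2-T23, of a multigene family with uncertain counts, had 1.27 and 0.70. The list depended on the set: 9 were higher and 5 lower against set 1, and 10 higher and none lower against set 2. Cd74, a chaperone of MHC class II, went the other way, with 0.824, 0.820 and 0.785 normalized CPM in vehicle organoids, against 3.74 and 5.55 in set 1 and 6.47 and 5.47 in set 2 (log2 fold change -2.70 ± 0.26 (SE), adjusted p = 5.22e-05).

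The esophageal keratins Krt13 and Krt4 were higher in vehicle organoids and most keratins of simple epithelium were lower. Of 26 squamous differentiation genes tested, 12 were higher and 6 lower, with a median of 0.34, and the summed level was 6193 to 6239.8 CPM in vehicle organoids against 4251 to 4657 CPM in premalignant organoids. Krt13, the suprabasal keratin of esophagus and oral mucosa (gene at chr11:100117327-100121566), had 1218, 1212 and 1192 normalized CPM in vehicle organoids, against 6.65 and 5.61 in set 1 and 19.7 and 24.3 in set 2 (log2 fold change 6.42 ± 0.50 (SE), adjusted p = 1.76e-05). Its partner Krt4 had 379.6, 382 and 372 normalized CPM in vehicle organoids, against 22.6 and 23.3 in set 1 and 62.9 and 54.8 in set 2 (log2 fold change 3.21 ± 0.36 (SE), adjusted p = 1.14e-04). Set 2 stood above set 1 in both, and every vehicle library stood above both sets. In premalignant sgScr organoids, on a scale set over all 13 libraries of the tables, Krt13 ran from 121 to 151 normalized CPM.

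Sprr3 and Crnn, late products of esophageal squamous cells, were rarer and had log2 fold changes of 3.56 and 2.95. Sprr3 was counted at 5.95, 6.43 and 6.82 normalized CPM in vehicle organoids, against 0.0558 and 0.549 in set 1 and 0.850 and 0.675 in set 2 (log2 fold change 3.56 ± 0.47 (SE), adjusted p = 2.92e-04). Klf4, a transcription factor of differentiating epithelium, rose by 1.09 and the desmosomal cadherin gene Dsc2 by 1.72. Others of the list were lower, among them Cnfn (-1.47), a component of the cornified envelope, Krt80 (-1.23) and Anxa1 (-0.89). The list thus did not move as one. The call of Cnfn was lost without vehicle library 1, 2 or 3 or set 1 library 1 or 2 (adjusted p = 0.0617 to 0.0981), and against set 2 alone it was at -0.56 and did not pass.

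The stress keratin Krt6a, induced in wounds and hyperproliferative epidermis, had 2754, 2684 and 2693 normalized CPM in vehicle organoids, against 668 and 632 in set 1 and 885 and 885 in set 2 (log2 fold change 1.82 ± 0.13 (SE), adjusted p = 1.19e-05). Its near-identical neighbour Krt6b had a log2 fold change of 1.597, and reads may be shared between them. In premalignant sgScr organoids Krt6a ran from 2309 to 2618 normalized CPM on the scale of 13 libraries, far above either sgTgfbr2 set.

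Simple epithelial keratins showed 4 of 6 lower and none higher. Krt8, at chr15:101996698-102004482, had 36.7, 39.8 and 37.7 normalized CPM in vehicle organoids, against 431 and 409.6 in set 1 and 168 and 172 in set 2 (log2 fold change -2.96 ± 0.39 (SE), adjusted p = 2.82e-04). Krt19 averaged 467 ± 4.61 normalized CPM in vehicle organoids and 2038 ± 170.3 in premalignant organoids (SD, n = 3 and 4; log2 fold change -2.13 ± 0.08 (SE), adjusted p = 7.45e-07), and Krt23 had 2.18, 2.21 and 1.45 normalized CPM in vehicle organoids, against 24.8 and 26.5 in set 1 and 23.6 and 22.2 in set 2 (log2 fold change -3.64 ± 0.16 (SE), adjusted p = 1.47e-06). Krt18, the usual partner of Krt8, was lower by less, at -0.48, and at -0.05 (adjusted p = 0.723) under housekeeping scaling. Of the basal keratins, Krt5 had 5377, 5256 and 5342 normalized CPM in vehicle organoids, against 4257 and 4107 in set 1 and 6539 and 6441 in set 2, with the vehicle libraries between the sets (log2 fold change -0.003 ± 0.17 (SE), adjusted p = 0.990), and Krt14 averaged 1287 ± 21.7 normalized CPM in vehicle organoids and 996 ± 203 in premalignant organoids (SD, n = 3 and 4; log2 fold change 0.37 ± 0.14 (SE), adjusted p = 0.0534). Krt14 passed without set 2 library 1 or 2 (adjusted p = 0.0164 to 0.0363).

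**Figure D3:**
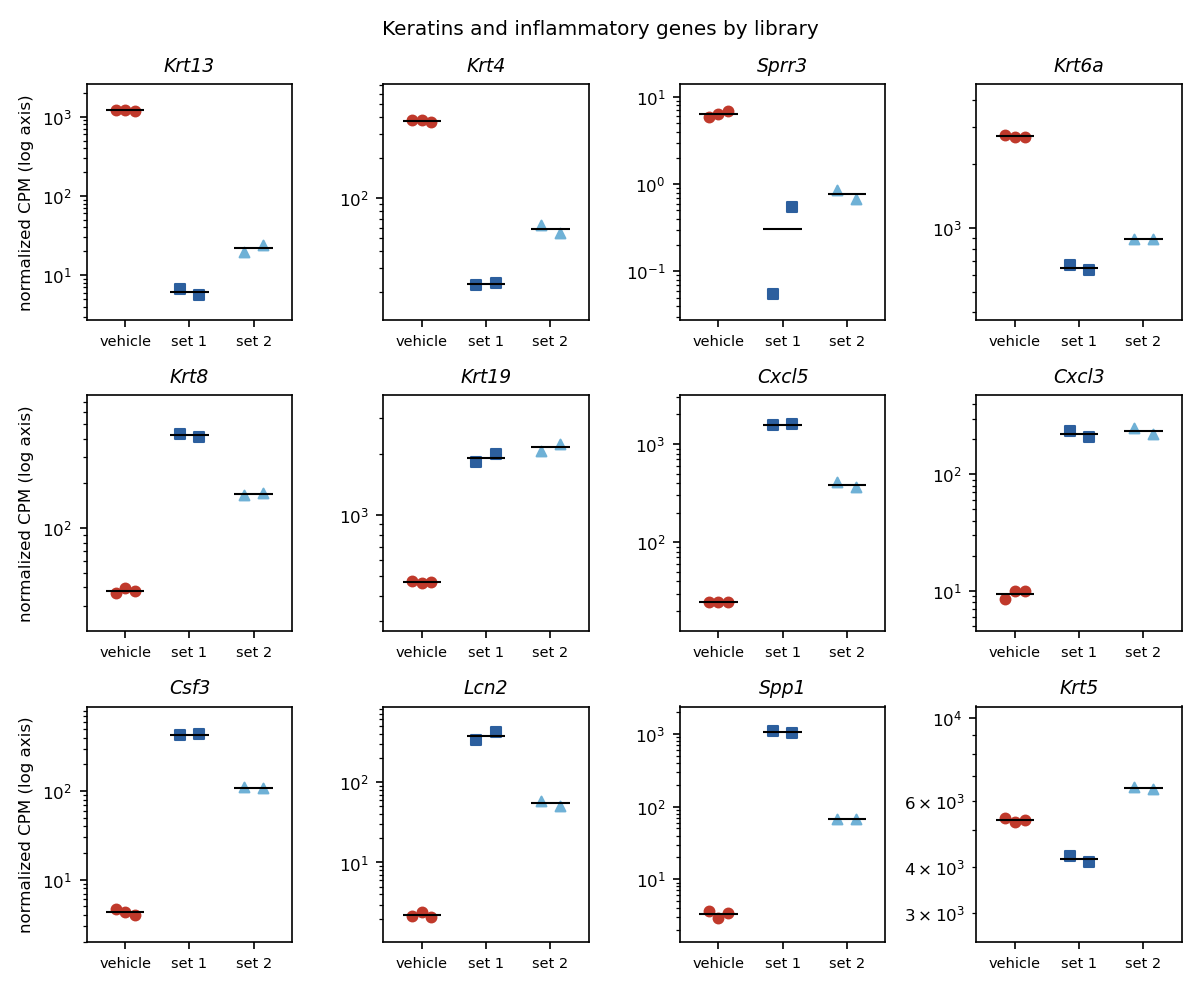
Normalized CPM (log axis, a scale for each gene) of 12 keratin and inflammatory genes in vehicle tumor organoids (circles), set 1 (squares) and set 2 (triangles), 1 point per library with a line at the mean. Krt13, Krt4, Sprr3 and Krt6a are higher in every vehicle library, Krt8, Krt19, Cxcl5, Cxcl3, Csf3, Lcn2 and Spp1 lower, and Krt5 lies between the sets.

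Columnar and glandular genes split. Of 20 listed, 5 were tested, 2 higher and 2 lower. Muc4, a membrane mucin, had 45.9, 44.8 and 45.5 normalized CPM in vehicle organoids, against 4.75 and 2.81 in set 1 and 6.28 and 4.25 in set 2 (log2 fold change 3.31 ± 0.21 (SE), adjusted p = 5.93e-06), and Muc6, a gastric gland mucin, had 2.18, 2.52 and 3.08 normalized CPM in vehicle organoids, against 0.335 and 0.0610 in set 1 and 0.189 and 0.270 in set 2 (log2 fold change 3.56 ± 0.40 (SE), adjusted p = 1.18e-04). Gata4, a transcription factor of columnar stomach epithelium, had 0.0589, 0 and 0 normalized CPM in vehicle organoids, against 14.9 and 13.6 in set 1 and 1.70 and 1.62 in set 2; the 1 count over the vehicle group against 550 over the premalignant group is a ratio of 387 (95% counting interval 69.1 to 15300). Tff1, Tff3, Hnf4a and Gkn2 had no count in any of the 7 libraries.

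Adhesion genes were called in both directions. The share called was 66.7% of desmosome genes and 65.2% of tight and adherens junction genes, near the 59.8% of all genes tested. Of 12 desmosome genes 6 were higher and 2 lower, with a median of 0.53. Dsg3, the desmosomal cadherin of basal squamous cells, averaged 396 ± 8.90 normalized CPM in vehicle organoids and 100.6 ± 12.2 in premalignant organoids (SD, n = 3 and 4; log2 fold change 1.98 ± 0.10 (SE), adjusted p = 1.90e-06). Pkp2, the plakophilin common to simple epithelia, was lower (log2 fold change -1.36 ± 0.08 (SE), adjusted p = 3.81e-06). Of 23 tight and adherens junction genes 5 were higher and 10 lower (12 higher and 4 lower with a median of 0.32 under housekeeping scaling). Claudins moved apart, with Cldn8 at 2.54 and Cldn3 and Cldn1 at -2.46 and -0.96, and the scaffold gene Tjp3 was at -1.96. Cldn1 was at -0.53 and did not pass (adjusted p = 0.0760) under housekeeping scaling.

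Basal squamous genes were even, with 7 higher and 7 lower of 20 (13 higher and 2 lower with a median of 0.57 under housekeeping scaling). Bnc1, a transcription factor of basal keratinocytes, rose by 1.72, Sox2, which specifies esophageal squamous epithelium, by 1.01, and Col17a1, of hemidesmosomes, by 0.86. Igfbp3, which binds insulin-like growth factors, had 72.1, 79.2 and 75.6 normalized CPM in vehicle organoids, against 602 and 588 in set 1 and 229 and 219 in set 2 (log2 fold change -2.44 ± 0.40 (SE), adjusted p = 9.77e-04). Pdpn, a membrane glycoprotein of basal and invading cells, was at -1.41. Hmga2, a chromatin protein of embryonic and tumor cells, was higher, with 143, 145 and 131 normalized CPM in vehicle organoids, against 27.1 and 33.5 in set 1 and 52.96 and 49.3 in set 2 (log2 fold change 1.77 ± 0.21 (SE), adjusted p = 1.58e-04).

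Most inflammatory genes were lower in vehicle organoids, and for some of them, such as Cxcl5 and Csf3, the premalignant sets differed by severalfold. Of 15 chemokine and IL-1 family genes 10 were lower and 2 higher, with a median log2 fold change of -1.60. Of 21 NF-kB and cytokine genes 15 were lower and 1 higher (median -1.09), and of 14 innate defence genes 11 were lower and 3 higher (median -2.0). Summed chemokine and IL-1 family levels were 576 to 602 CPM in vehicle organoids, 3718 and 3738 CPM in set 1 and 1530.2 and 1349 CPM in set 2, and 725 to 810.1 CPM in premalignant sgScr organoids. The medians kept their sign under housekeeping scaling (-1.18, -0.66 and -1.57).

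Cxcl3, a neutrophil chemokine, is shown with its promoter because the sets are alike in it and its promoter holds an NF-kB (kappaB) motif, in capitals, in the 150 bases before the start (chr5:90785951-90786100, plus strand, GRCm38.p6, RefSeq).
Cxcl3: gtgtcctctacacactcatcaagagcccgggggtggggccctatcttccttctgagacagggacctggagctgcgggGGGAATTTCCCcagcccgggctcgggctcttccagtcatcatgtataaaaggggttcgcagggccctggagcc
It had 8.48, 9.90 and 10.0 normalized CPM in vehicle organoids, against 235 and 210.4 in set 1 and 251 and 224 in set 2 (log2 fold change -4.60 ± 0.10 (SE), adjusted p = 1.38e-07). The kappaB motif was found on either strand in 5 of 14 matched promoters of the chemokine list (35.7%) and 6 of 18 of the NF-kB list (33.3%), against 3.75% of all 27025 promoters and 4.43% of the promoters of genes tested, and an ISRE core in 2 of the 14 and none of the 18.

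The other neutrophil chemokines were lower as well. Cxcl5, at chr5:90759360-90761624, had 24.4, 24.6 and 24.7 normalized CPM in vehicle organoids, against 1563 and 1583 in set 1 and 408 and 364 in set 2 (log2 fold change -5.32 ± 0.66 (SE), adjusted p = 2.09e-04). Cxcl1 and Cxcl2 had log2 fold changes of -2.22 and -2.30. Ccl20, which draws dendritic cells and T cells, had 14.9, 14.2 and 13.2 normalized CPM in vehicle organoids, against 244 and 226 in set 1 and 41.5 and 37.2 in set 2 (log2 fold change -3.28 ± 0.75 (SE), adjusted p = 0.00524). In Cxcl5 and Ccl20 set 1 lay severalfold above set 2, and vehicle organoids lay below both. Ccl5 was at -2.81, Cxcl16 at -1.60 and Il18 at -1.60, whereas Il1f9 (IL-36 gamma) was higher, at 1.63, a call that was lost without vehicle library 1, 2 or 3 (adjusted p = 0.0626 to 0.0807).

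Granulocyte growth factors followed the chemokines. Csf3, the granulocyte colony-stimulating factor, had 4.71, 4.35 and 3.98 normalized CPM in vehicle organoids, against 423 and 443 in set 1 and 111 and 107 in set 2 (log2 fold change -5.96 ± 0.71 (SE), adjusted p = 1.60e-04), and Csf2 was at -5.51. Icam1, which binds leukocyte integrins, was at -2.77. Inhibitors and subunits of NF-kB that the pathway itself induces were lower by less, with Nfkbia at -1.32, Nfkbie at -1.96, Nfkb2 at -1.09 and Relb at -1.0. Bcl3, a nuclear cofactor of NF-kB, was the 1 member that was higher (0.66).

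Among defence genes, Lcn2, which withholds iron from bacteria (gene at chr2:32384633-32388252), had 2.18, 2.40 and 2.11 normalized CPM in vehicle organoids, against 332 and 417 in set 1 and 57.6 and 50.7 in set 2 (log2 fold change -6.58 ± 1.02 (SE), adjusted p = 6.96e-04). Nos2, the inducible nitric oxide synthase, had 1.65, 0.820 and 0.483 normalized CPM in vehicle organoids, against 61.8 and 76.4 in set 1 and 14.4 and 12.2 in set 2 (log2 fold change -5.37 ± 0.91 (SE), adjusted p = 0.00113), and Steap4, a metalloreductase, had 1.53, 1.261 and 0.905 normalized CPM in vehicle organoids, against 121 and 142 in set 1 and 20.8 and 15.5 in set 2 (log2 fold change -5.91 ± 1.06 (SE), adjusted p = 0.00150). All 3 stood in one order: vehicle below set 2, and set 2 below set 1. In premalignant sgScr organoids Lcn2 ran from 1.1 to 5.4 normalized CPM on the scale of 13 libraries, also below both sgTgfbr2 sets. Summed innate defence genes were 870 to 914 CPM in vehicle organoids and 1392 to 2428 CPM in the sgTgfbr2 sets. In premalignant sgScr organoids they were 579 to 686 CPM. The complement gene C3 was at -3.46 and Pigr, the receptor that exports IgA, at -1.86. Slpi, a protease inhibitor of mucosal secretions, and Defb1, a defensin, were higher, at 1.15 and 1.45.

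The secreted matrix protein gene Spp1 (osteopontin) differed between the sets by far more than within them: it had 3.65, 2.90 and 3.38 normalized CPM in vehicle organoids, against 1112 and 1040 in set 1 and 67.4 and 66.6 in set 2 (log2 fold change -7.43 ± 1.38 (SE), adjusted p = 0.00181). The immune markers summed to 41.3 to 46.6 CPM in vehicle organoids and 37.0 to 61.9 CPM in premalignant organoids, and Cd3d, Lyz2, Tyrobp and Adgre1 had no count in any of the 7 libraries.

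Most listed genes of TGF-beta ligands and activators, and several TGF-beta target genes, were lower in vehicle organoids, but their summed levels were not. Both groups were declared to carry the Tgfbr2 guide and both grew with the receptor inhibitor. Of 17 ligands and activators 11 were lower and 3 higher, with a median of -0.79 (6 higher and 9 lower with a median of -0.36 under housekeeping scaling). Their summed level was higher in vehicle organoids, at 1071 to 1099 CPM against 787 to 900 CPM in premalignant organoids. Much of this difference lay in 1 gene, Ltbp3. It had 401 to 426 normalized CPM in vehicle organoids and 224 to 264 in premalignant organoids. Tgfb2, at chr1:186622792-186705989, had 0.942, 0.882 and 1.15 normalized CPM in vehicle organoids, against 19.4 and 18.2 in set 1 and 13.4 and 7.09 in set 2 (log2 fold change -3.87 ± 0.40 (SE), adjusted p = 7.37e-05). Tgfb1 was lower by less (log2 fold change -0.65 ± 0.07 (SE), adjusted p = 9.10e-05). Ltbp2, a latent TGF-beta binding protein of the matrix, had 4.18, 4.22 and 4.17 normalized CPM in vehicle organoids, against 47.6 and 44.9 in set 1 and 21.4 and 16.3 in set 2 (log2 fold change -2.96 ± 0.41 (SE), adjusted p = 4.06e-04), and Itgb6, whose integrin frees latent TGF-beta, was at -1.03. Inhba, of activin A, and its antagonist Fst were lower too, at -1.75 and -2.29. Ltbp3 and Ltbp4 were higher, at 0.74 and 1.64.

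Of 23 TGF-beta and Smad3 target genes 12 were lower and 3 higher (median -0.54, and 9 higher and 9 lower with a median of -0.12 under housekeeping scaling). Their summed levels overlapped, at 1744 to 1805 CPM in vehicle organoids and 1722 to 1885 CPM in premalignant organoids. Ctgf, a matricellular target of both Smad3 and YAP, had 4.47, 4.10 and 4.29 normalized CPM in vehicle organoids, against 29.7 and 40.6 in set 1 and 33.6 and 29.4 in set 2 (log2 fold change -2.96 ± 0.15 (SE), adjusted p = 2.24e-06). The groups did not overlap in it, and the sets were close to each other. Tnc, Mmp13 and Cdkn2b were lower, at -2.01, -3.85 and -1.17, and Tgfbi, Tagln and Tsc22d1 higher, at 1.27, 1.37 and 0.71. The call of Tgfbi was lost without vehicle library 1, 2 or 3 or set 1 library 1 or 2 (adjusted p = 0.0657 to 0.107). The inhibitory Smad7, itself a TGF-beta target, was at -0.71, and at -0.28 (adjusted p = 0.0676) under housekeeping scaling. Of 16 receptors and Smads 2 were higher and 6 lower (9 higher and 2 lower with a median of 0.39 under housekeeping scaling), with Tgfbr3, the coreceptor betaglycan, at -0.87.

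Id1, Id2 and Id3, direct targets of BMP signals, were lower in vehicle organoids. Id1, which blocks basic helix-loop-helix factors (gene at chr2:152736251-152737410), had 27.0, 28.3 and 27.1 normalized CPM in vehicle organoids, against 248 and 236 in set 1 and 216 and 257 in set 2 (log2 fold change -3.12 ± 0.08 (SE), adjusted p = 1.39e-07). Id3 had 27.0, 27.0 and 24.4 normalized CPM in vehicle organoids, against 159.7 and 148 in set 1 and 226 and 237 in set 2 (log2 fold change -2.88 ± 0.19 (SE), adjusted p = 7.69e-06), and Id2 was at -1.73. Every vehicle library lay far under every premalignant library for both, and the sets were close in Id1. In premalignant sgScr organoids, on the scale of 13 libraries, Id1 ran from 20.3 to 25.1 normalized CPM, under both sgTgfbr2 sets. Smad6, the inhibitory Smad that BMP induces, was at -1.01, and Msx2, a BMP-induced homeobox gene, had 3 counts over the vehicle group against 183 over the premalignant group, a ratio of 42.9 (95% counting interval 14.4 to 210). The ligand gene Bmp2 was higher (log2 fold change 1.37 ± 0.10 (SE), adjusted p = 1.35e-05). The list as a whole had 5 higher and 8 lower of 17 (6 higher and 5 lower with a median of -0.06 under housekeeping scaling). Both groups grew with noggin per the labels.

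**Figure D4:**
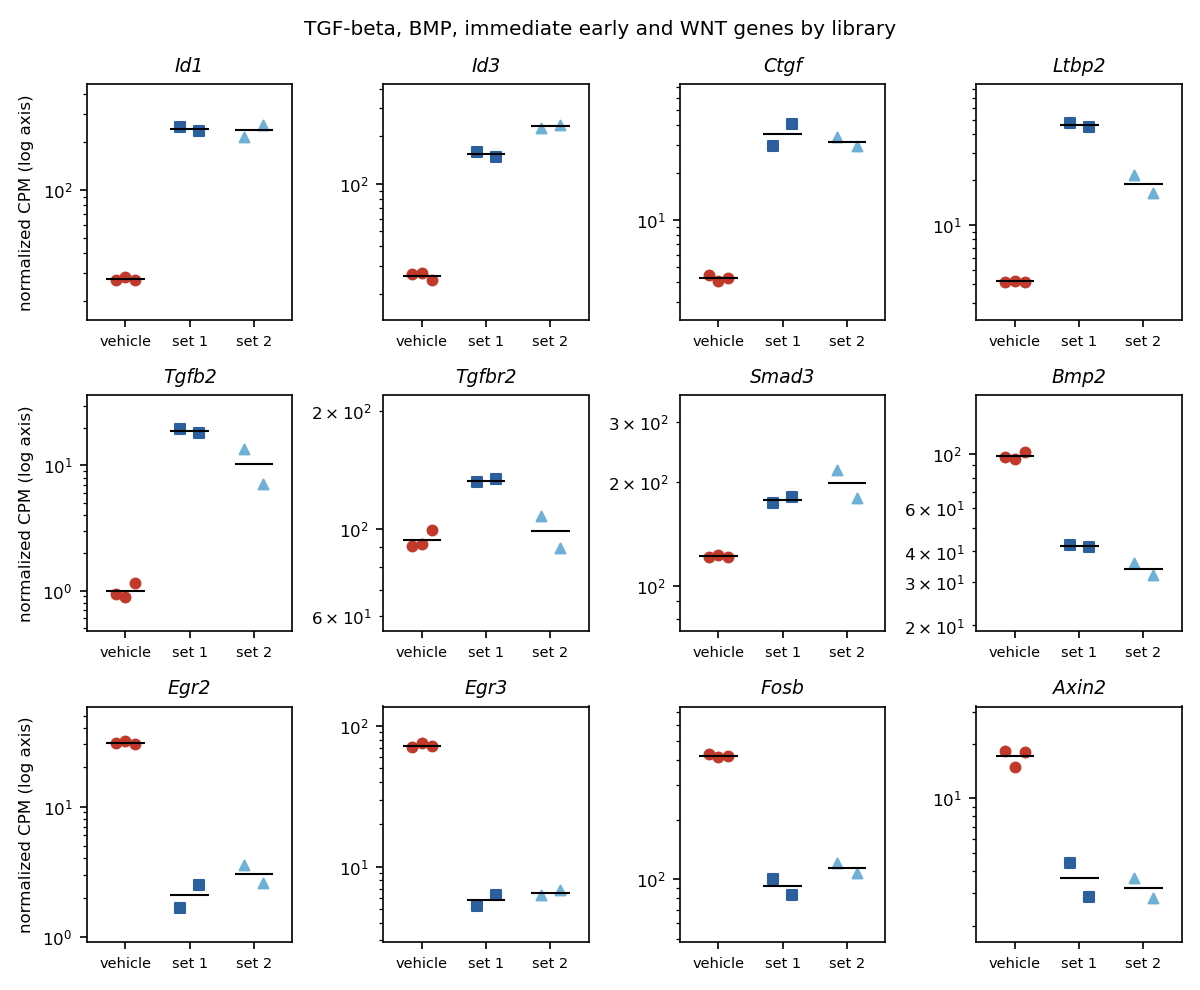
Normalized CPM (log axis, a scale for each gene) of 12 TGF-beta, BMP, immediate early and WNT genes in vehicle tumor organoids (circles), set 1 (squares) and set 2 (triangles), 1 point per library with a line at the mean. Id1, Id3, Ctgf, Ltbp2, Tgfb2 and Smad3 are lower in every vehicle library, Bmp2, Egr2, Egr3, Fosb and Axin2 higher, and Tgfbr2 overlaps.

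YAP and TAZ targets overlap with the TGF-beta list in Tgfb2 and Ctgf and had 5 higher and 11 lower of 23 (10 higher and 11 lower with a median of 0.15 under housekeeping scaling). Ankrd1, Gadd45b, Ddah1 and Axl, a receptor tyrosine kinase, were lower, at -3.59, -2.09, -1.98 and -1.55, as was Cyr61 (-1.19). Axl averaged 262 ± 4.15 normalized CPM in vehicle organoids and 766 ± 99.9 in premalignant organoids (SD, n = 3 and 4; log2 fold change -1.55 ± 0.11 (SE), adjusted p = 9.07e-06). Ajuba, which restrains the Hippo kinases, was higher, at 0.99.

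Matrix proteases and their inhibitors had 3 higher and 10 lower of 16, with a median of -1.01. Mmp11 (stromelysin 3) averaged 1.55 ± 0.340 normalized CPM in vehicle organoids and 10.2 ± 2.08 in premalignant organoids (SD, n = 3 and 4; log2 fold change -2.71 ± 0.24 (SE), adjusted p = 3.53e-05), and the urokinase gene Plau was at -1.79. Mmp14, a membrane collagenase, was higher (log2 fold change 1.28 ± 0.07 (SE), adjusted p = 4.28e-06), as were the cathepsin gene Ctsb and Timp1, at 1.07 and 1.10. The call of Timp1 was lost without vehicle library 1, 2 or 3 or set 2 library 1 or 2 (adjusted p = 0.0648 to 0.121). Matrix genes had 4 higher and 9 lower of 19 (6 higher and 7 lower with a median of -0.12 under housekeeping scaling). Col7a1, the anchoring fibril collagen of squamous basement membranes, was higher (log2 fold change 2.12 ± 0.24 (SE), adjusted p = 1.38e-04). Col5a1 had no count in vehicle organoids against 102 counts over the premalignant group, at least 23.9-fold lower, with 3 counts over the group as the floor. Of the integrins, Itga2, the collagen receptor, averaged 7.16 ± 0.227 normalized CPM in vehicle organoids and 52.98 ± 10.0 in premalignant organoids (SD, n = 3 and 4; log2 fold change -2.89 ± 0.16 (SE), adjusted p = 3.78e-06), and Itga6 and Itga5 were higher, at 0.67 and 0.72. On the scale of 13 libraries, Itga2 ran from 9.24 to 16.6 normalized CPM in premalignant sgScr organoids, also under both sgTgfbr2 sets.

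Markers of mesenchymal cells were rare in both groups. Vim had 0.177, 0 and 0.0604 normalized CPM in vehicle organoids, against 1.06 and 0.854 in set 1 and 0.614 and 0.743 in set 2 (log2 fold change -3.23 ± 0.64 (SE), adjusted p = 0.00248), and Pdgfra had 0.177, 0.126 and 0 normalized CPM in vehicle organoids, against 2.96 and 3.48 in set 1 and 3.40 and 2.09 in set 2 (log2 fold change -4.79 ± 0.53 (SE), adjusted p = 1.15e-04). Genes of epithelial-mesenchymal transition had 4 higher and 4 lower of 13 (6 higher and 2 lower with a median of 0.61 under housekeeping scaling), near the shares over all genes under TMM. Twist1 depended on the set, with 27.9, 28.4 and 28.2 normalized CPM in vehicle organoids, against 2.96 and 3.60 in set 1 and 28.1 and 29.2 in set 2 (log2 fold change 0.82 ± 0.71 (SE), adjusted p = 0.346). Fibroblast markers summed to 0.875 to 1.76 CPM in vehicle organoids and 2.34 to 4.75 CPM in premalignant organoids, and their part in the TGF-beta and matrix results was not tested.

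Immediate early genes, which growth factor and stress signals induce within minutes, were higher in vehicle organoids. Of 15 tested 9 were higher and 2 lower, with a median of 0.82, and their summed level was 4985 to 5103 CPM in vehicle organoids against 2940 to 3243 CPM in premalignant organoids. Egr2 had 30.7, 31.6 and 30.1 normalized CPM in vehicle organoids, against 1.68 and 2.50 in set 1 and 3.54 and 2.56 in set 2 (log2 fold change 3.57 ± 0.20 (SE), adjusted p = 3.54e-06). Egr3 had 70.9, 75.3 and 71.6 normalized CPM in vehicle organoids, against 5.31 and 6.34 in set 1 and 6.28 and 6.82 in set 2 (log2 fold change 3.55 ± 0.09 (SE), adjusted p = 1.39e-07), and Fosb had 430.1, 414 and 418 normalized CPM in vehicle organoids, against 100.7 and 83.1 in set 1 and 121 and 108 in set 2 (log2 fold change 2.03 ± 0.11 (SE), adjusted p = 3.80e-06). The groups stood apart by severalfold in each. Nr4a1, Jun and Fos were at 1.89, 1.58 and 1.39, and Jund was lower (-1.16). Such genes also answer to handling at harvest, and how cells were harvested is not given in the labels, so its part was not tested.

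EGF-family genes had 6 higher and 4 lower of 14: Areg, a ligand of the EGF receptor, and Nrg1, a ligand of ErbB3, were higher, at 0.96 and 0.89, and Btc lower, at -1.37. Genes of negative feedback on ERK had 3 higher and 3 lower of 14 (11 higher and 1 lower with a median of 0.42 under housekeeping scaling), with Spry2 at 1.90 and Ier3 at -1.52. Of the WNT pathway 5 were higher and 7 lower of 19 (9 higher and 7 lower with a median of 0.46 under housekeeping scaling). Axin2, the standard target of beta-catenin, had 18.2, 14.8 and 17.99 normalized CPM in vehicle organoids, against 4.41 and 2.87 in set 1 and 3.63 and 2.83 in set 2 (log2 fold change 2.30 ± 0.18 (SE), adjusted p = 1.81e-05). Lef1 and Tcf7, its DNA-binding partners, and the ligand genes Wnt7a and Wnt7b were lower, at -3.24, -0.94, -1.70 and -1.55. Notch genes had 5 higher and 3 lower of 12. Notch3 and Jag2 were higher, at 0.70 and 0.74, Hes1, a Notch target, was at 0.83 and Hey1, another, at -2.81.

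Calcium channel and handling genes were listed because pinaverium bromide, the drug of the study, blocks calcium channels. They had 6 higher and 13 lower of 27 (9 higher and 9 lower with a median of -0.06 under housekeeping scaling). Atp2a3, a calcium pump of the endoplasmic reticulum, had 0.353, 0.756 and 0.845 normalized CPM in vehicle organoids, against 10.2 and 11.3 in set 1 and 9.58 and 7.49 in set 2 (log2 fold change -3.88 ± 0.29 (SE), adjusted p = 1.59e-05). Atp2b4, a pump of the plasma membrane, had 0.648, 1.14 and 0.724 normalized CPM in vehicle organoids, against 8.38 and 10.7 in set 1 and 19.0 and 10.8 in set 2 (log2 fold change -3.87 ± 0.37 (SE), adjusted p = 5.22e-05). Cacna1g and Cacna1h, of T-type channels, were at -4.13 and -2.17, and Itpr2 and Itpr3, receptors for inositol trisphosphate, were higher, at 1.55 and 0.69. The call of Cacna1h was lost without vehicle library 1, 2 or 3 (adjusted p = 0.0518 to 0.0882).

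Hypoxia, glycolysis and fatty acid oxidation genes were lower in vehicle organoids. Of 26 hypoxia and glycolysis genes 20 were lower and 1 higher (median -0.54; 6 higher and 10 lower with a median of -0.11 under housekeeping scaling). Ndrg1, Egln3, the oxygen sensor that hypoxia itself induces, and the glycolytic Aldoa and Ldha were at -1.30, -1.23, -0.96 and -0.99, and Adm at -2.65. Vegfa, the vascular growth factor and also a hypoxia target, was the member that was higher (log2 fold change 0.92 ± 0.07 (SE), adjusted p = 1.70e-05). Of 16 fatty acid oxidation genes 12 were lower and none higher (median -0.68; 3 higher and 8 lower with a median of -0.25 under housekeeping scaling). Cpt1a, which admits fatty acids to mitochondria, had 24.4, 21.9 and 22.3 normalized CPM in vehicle organoids, against 55.5 and 61.6 in set 1 and 74.2 and 70.3 in set 2 (log2 fold change -1.51 ± 0.11 (SE), adjusted p = 1.45e-05). On the scale of 13 libraries, Cpt1a ran from 14.8 to 19.5 normalized CPM in premalignant sgScr organoids, also under both sgTgfbr2 sets. Pdk4, the kinase that shuts pyruvate dehydrogenase, had no count in vehicle organoids against 331 counts over the premalignant group, at least 77.6-fold lower with 3 counts over the group as the floor.

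Ribosomal protein, MYC target and oxidative phosphorylation genes were mostly lower under TMM, and this direction rested on the scale. Ribosomal protein genes had 1 higher and 23 lower of 30 (6 higher and 7 lower with a median of 0.01 under housekeeping scaling); most are short, and less the median of genes of like length their median was -0.21 against -0.42. MYC targets and ribosome biogenesis genes had 3 higher and 14 lower of 26 (12 higher and 2 lower with a median of 0.20 under housekeeping scaling), although Gnl3 and Nop56 were higher, at 0.91 and 0.69. Oxidative phosphorylation genes had 2 higher and 15 lower of 28 (12 higher and 2 lower with a median of 0.19 under housekeeping scaling). No direction is drawn for these lists.

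DNA replication genes had 7 higher and 5 lower of 30 (21 higher and 0 lower with a median of 0.37 under housekeeping scaling), and mitosis genes 5 higher and 2 lower of 25 (20 higher and 0 lower with a median of 0.46 under housekeeping scaling). Mitosis genes turned with the set, with 16 higher and 2 lower against set 1 and 5 higher and 15 lower against set 2. Mki67, the usual marker of cycling cells, had 669.8, 657 and 658 normalized CPM in vehicle organoids, against 496 and 479 in set 1 and 556 and 545 in set 2 (log2 fold change 0.35 ± 0.07 (SE), adjusted p = 0.00274). Cdkn1c and Cdkn2b, inhibitors of cyclin-dependent kinases, were lower, at -1.98 and -1.17.

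Integrated stress response genes were mostly higher or not called. Of 24 integrated stress response genes 14 were higher and 1 lower (median 0.57; 23 higher and 1 lower with a median of 1.00 under housekeeping scaling). Nupr1 and Trib3, targets of Atf4, were at 1.61 and 1.59, Atf4 itself at 0.76, and Aldh1l2 and Mthfd2, mitochondrial one-carbon enzymes that Atf4 induces, at 1.53 and 0.92. Cytosolic heat shock genes had 1 higher and 10 lower of 16 (7 higher and 5 lower with a median of 0.15 under housekeeping scaling). The small heat shock genes Hspb1 and Cryab were at -1.63 and -2.22, and Hspa1a, near-identical to Hspa1b, at -1.56. Sterol synthesis genes had 13 higher and 2 lower of 25 (21 higher and 1 lower with a median of 0.67 under housekeeping scaling), with Insig1, which holds the pathway back, at -0.99.

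NRF2 and glutathione genes had 8 higher and 14 lower of 29 (15 higher and 7 lower with a median of 0.23 under housekeeping scaling). Nqo1, a quinone reductase and common NRF2 readout, had 118, 112 and 109.9 normalized CPM in vehicle organoids, against 23.4 and 25.6 in set 1 and 54.3 and 64.8 in set 2 (log2 fold change 1.43 ± 0.33 (SE), adjusted p = 0.00551), whereas Hmox1, Me1 and Gpx4 were lower, at -1.72, -1.52 and -1.14. All 7 libraries were declared to lack Trp53, and p53 targets had 4 higher and 9 lower of 23 (11 higher and 5 lower with a median of 0.22 under housekeeping scaling). Fas, a death receptor, had 0.412, 0.630 and 0.966 normalized CPM in vehicle organoids, against 6.70 and 6.22 in set 1 and 4.72 and 4.72 in set 2 (log2 fold change -3.05 ± 0.31 (SE), adjusted p = 7.36e-05). Circadian clock genes had 4 higher and 3 lower of 18 (12 higher and 2 lower with a median of 0.645 under housekeeping scaling). They had 10 higher and 3 lower against set 1 and 5 higher and 7 lower against set 2. Npas2, a clock transcription factor, was at 1.79. Of checkpoint and evasion genes, 4 higher and 3 lower of 10, Lgals9 (galectin-9), an interferon-responsive lectin, averaged 19.8 ± 1.64 normalized CPM in vehicle organoids and 1.33 ± 0.300 in premalignant organoids (SD, n = 3 and 4; log2 fold change 3.90 ± 0.17 (SE), adjusted p = 1.47e-06), Arg1, which degrades arginine, had 206, 200.3 and 195 normalized CPM in vehicle organoids, against 22.1 and 27.0 in set 1 and 22.8 and 22.6 in set 2 (log2 fold change 3.09 ± 0.08 (SE), adjusted p = 1.39e-07), and Cd80, a costimulatory ligand of T cells, was at -2.31. The call of Cd80 was lost without vehicle library 1, 2 or 3 or set 1 library 1 or 2 (adjusted p = 0.0801 to 0.109), and against set 2 alone it was at -0.15 and did not pass.

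**Figure D5:**
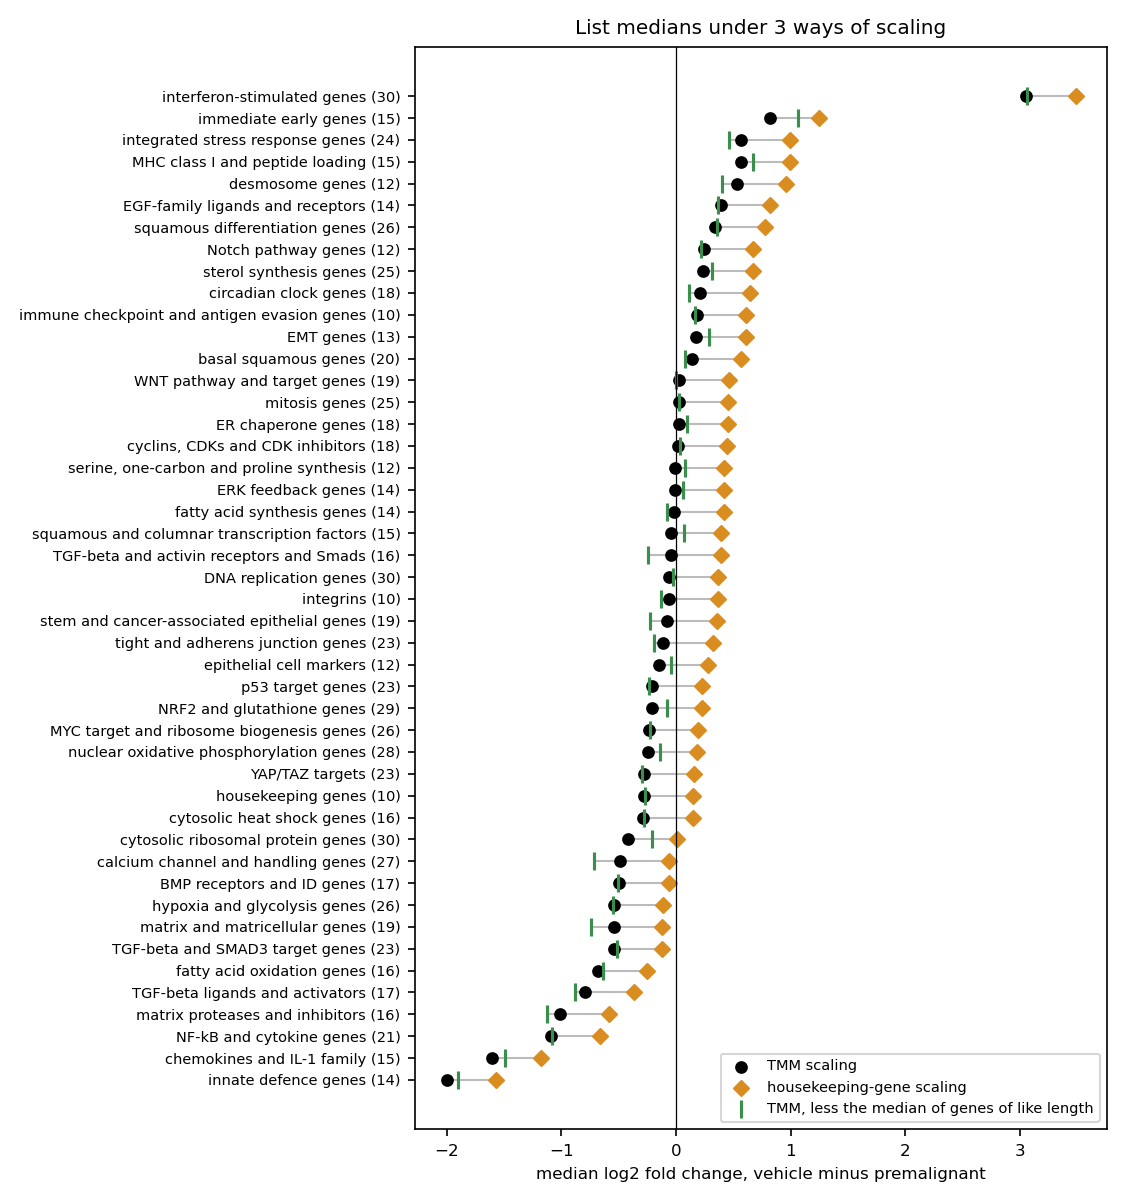
Median log2 fold change, vehicle minus premalignant, of each gene list with at least 10 tested members (number in parentheses) under TMM (black circles), under scaling by 10 housekeeping genes (orange diamonds), and under TMM less the median of genes of like length (green bars). Housekeeping scaling moves each list to the right by about the 0.42 of all genes; the interferon-stimulated genes stay furthest right and the innate defence genes furthest left on all 3.

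Outside the lists, the largest folds that met the naming rule were of genes nearly absent from one group. Alox15, a lipoxygenase of eicosanoid synthesis, had 354, 339 and 340.2 normalized CPM in vehicle organoids, against 0.112 and 0 in set 1 and 2.31 and 1.49 in set 2 (log2 fold change 8.38 ± 0.54 (SE), adjusted p = 6.90e-06). Rtp4, an interferon-induced chaperone of receptors, had 67.3, 70.0 and 67.2 normalized CPM in vehicle organoids, against 1.06 and 0.976 in set 1 and 0.330 and 0.675 in set 2 (log2 fold change 6.504 ± 0.22 (SE), adjusted p = 3.41e-07). Plbd1, a phospholipase-like lysosomal protein, was at 6.33, Otop3, a proton channel, at 5.97, and Lemd1 at 5.52. Among the lowest, Glipr2 had 0.118, 0.0630 and 0.0604 normalized CPM in vehicle organoids, against 16.7 and 18 in set 1 and 25.9 and 23.1 in set 2 (log2 fold change -7.89 ± 0.33 (SE), adjusted p = 1.12e-06). Abcg1, a cholesterol exporter, had 0.471, 0.441 and 0.422 normalized CPM in vehicle organoids, against 37.2 and 39.0 in set 1 and 21.6 and 22.2 in set 2 (log2 fold change -6.05 ± 0.36 (SE), adjusted p = 4.58e-06), and Kif1a, a kinesin of neurons, had 0.118, 0.126 and 0.121 normalized CPM in vehicle organoids, against 8.04 and 9.33 in set 1 and 12.7 and 9.45 in set 2 (log2 fold change -6.27 ± 0.31 (SE), adjusted p = 2.03e-06). Neurl3 followed the inflammatory genes in its order, with 1.00, 1.20 and 2.35 normalized CPM in vehicle organoids, against 234 and 260 in set 1 and 41.4 and 38.1 in set 2 (log2 fold change -6.55 ± 1.01 (SE), adjusted p = 6.85e-04). Meox1, a homeobox gene, had 3 counts over the vehicle group against 621 over the premalignant group, a ratio of 145 (95% counting interval 49.6 to 708). The rule also took Dhrsx, Pisd-ps3 and Vamp7, at least 518-, 691- and 667-fold lower, taking 3 counts in all as the vehicle floor; these are the genes at 0 throughout one table, and whether they were counted there at all cannot be told from the counts.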

How the data were processed

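The authors deposited 3 tables of raw counts per gene symbol, 24421 genes each. Reads were mapped to mm10 with STAR 2.6.0a, and DESeq2 1.26.0 is named, per the submitters' processing notes; which program, annotation and strand setting made the counts is not given in the sources used here, so a gene and its antisense partner cannot be told apart. The counts of vehicle and premalignant organoids stand in separate tables and were joined on 24394 shared symbols; 27 rows whose symbols read as dates were not joined. The other 23 columns of per-sample values, and the table of the tumors, were not used.

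The joined counts were tested with edgeR 4.0.16 (R 4.3.3): filterByExpr with a minimum count of 10, TMM, a quasi-likelihood F test of 3 vehicle against 4 premalignant libraries, two-sided, and Benjamini-Hochberg adjustment over 13201 genes at 0.05. An unadjusted p under 0.05 was found for 8505 genes. For normalized CPM the library's sum is first adjusted by its TMM factor; 3 counts are worth 0.138 to 0.196 CPM. Intervals cover counting error only. On counts of 13014 genes simulated for this comparison, 80% of 2-fold and 91.9% of 4-fold changes were recovered, and 6.56% of calls were false. The simulation drew each library on its own and held 100 genes changed 2-fold and 99 changed 4-fold. The data held 2 premalignant sets that differed and 59.8% of genes called, so these rates do not carry over to them.

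The members and the 58 gene lists were chosen with earlier results of these data known, and lists are described without a test. Named by rule were the engineered genes, the 12 highest and 12 lowest folds at a mean of at least 5 CPM, and up to 4 members of each list; all other genes were chosen after their values were seen. A few genes that the rule or lists hold are not reported here by name. Medians of lists with members at 0 to 3 counts were the same with those members at their bound. Coordinates are of GENCODE M21, which held 23358 of the symbols (95.8%). Promoters are RefSeq sequences of GRCm38.p6. Alternatives covered scaling, filters, DESeq2 1.42.0, limma 3.58.1, each set alone and each library left out; leaving out the genes at 0 throughout one table and the adjustment for transcript length were chosen after seeing the data.

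Same-numbered vehicle and premalignant libraries did not deviate together, with correlations of -0.003 to 0.022 over genes, so no pairing by number was seen. With 2 libraries in each set and vehicle libraries that differed little, these correlations cannot exclude one.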

Additional observations from a re-analysis of the deposited data

Results flagged for a closer look

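Among the 4 premalignant libraries, 1 library stood apart from the other 3, by a gap past Dixon's 95% critical value for 4 samples, for 14 of the genes named or taken by the naming rule. Chance flags about 1 in 20 groups of 4 like libraries, and these libraries came as 2 sets of 2. Of 280 gene and list values examined, 15 were flagged in this way, which is near that rate. In library 1 of set 1 the level stood apart for Cdkn2b at 57.4 against 65.1 to 66.7 and Tsc22d1 at 184 against 172 to 174 normalized CPM. In library 2 of set 1 the level stood apart for Arg1 at 27.0 against 22.1 to 22.8, Cebpb at 145 against 127 to 128, Ifit1 at 1.83 against 1.12 to 1.22, Mx1 at 1.46 against 0.472 to 0.558 and Wnt7a at 17.3 against 12.7 to 13.4 normalized CPM. In library 1 of set 2 the level stood apart for Agrn at 612 against 509 to 520.5, Col17a1 at 656 against 514 to 538, Hsp90aa1 at 1780 against 1951 to 1985, Pdk4 at 7.36 against 3.42 to 3.78, Reep5 at 155 against 169 to 172 and Smad3 at 217 against 174 to 181 normalized CPM. In library 2 of set 2 the level stood apart for Rplp1 at 2844 against 2430 to 2473 normalized CPM. The summed TGF-beta and SMAD3 target genes were 1885 CPM in library 1 of set 2 against 1722 to 1749.5 CPM in the other 3.

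Some genes lay on opposite sides of the sets, with every vehicle library above every library of one set and below every library of the other. Irf1 was at -0.37 against set 1 and 0.41 against set 2 on the log2 scale. Krt5 was at 0.35 against set 1 and -0.29 against set 2 on the log2 scale. The contrasts share the vehicle libraries, and the difference between them was not tested.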

How the results depend on the processing

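Against 7890 genes called, 3124 to 3941 higher and 3322 to 4039 lower were called as each library was left out, 6478 to 7980 in all. Housekeeping scaling gave 7403 higher and 1801 lower genes and 37 of 50 lists with a median over 0, against 19 under TMM. A fold change of at least 1 on the log2 scale gave 1196 higher and 1428 lower genes, 2624 in all. Scaling by DESeq2 size factors or upper quartile, other filters, the DESeq2 Wald test (4056 and 4294), limma-voom (3993 and 3811), either set alone, summed sets (3543 and 3811), a fit of 13 libraries and leaving out the genes at 0 throughout one table stayed within 1.5 times the counts of 3877 and 4013. With the replicate number as a block, which the labels do not show to pair these libraries, 2756 genes were higher and 2779 lower, 5535 in all.

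Directions turned as follows, and beyond the scale, the set or the library named in each alternative the cause was not tested. Under housekeeping scaling, log2 fold changes came to 0.0242 for Cdh1, 0.13 for Cdkn2a, 0.0490 for Elovl5, 0.40 for Irf1, 0.43 for Krt5, 0.00570 for Myc, 0.13 for Reep5, 0.12 for Tgfbr2 and 0.38 for Trp53. With a filter of 1 CPM, log2 fold changes came to 0.000533 for Krt5. With limma-voom, log2 fold changes came to 0.0280 for Irf1 and 0.0322 for Krt5. Against set 1 alone, log2 fold changes came to 0.35 for Krt5 and 0.0932 for Trp53. Against set 2 alone, log2 fold changes came to 0.41 for Irf1 and -0.0284 for Twist1. With the sets as separate groups, log2 fold changes came to 0.0271 for Irf1 and 0.0316 for Krt5. Irf1 ran from -0.16 to 0.10 as each library was left out. Krt5 ran from -0.12 to 0.11 as each library was left out. Trp53 ran from -0.12 to 6.74e-05 as each library was left out. Of 222 genes named, 213 passed in the comparison, against 59.8% of all genes tested. Most were named because they passed or after their values were seen, so this share was set by the choice. The counts that follow hold for genes so chosen. Of the 213, 190 passed with the same sign in every alternative with a value other than the fold threshold. Under housekeeping scaling 11 lost the call or turned, 9 lost the call without 1 of the libraries and 14 with the replicate block. Genes near 3 counts in a library are limited by depth.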

Other observations

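Lists not described so far held genes called in both directions. ER chaperone genes had 8 higher and 4 lower of 18 (15 higher and 1 lower with a median of 0.45 under housekeeping scaling), serine, one-carbon and proline synthesis genes 4 higher and 4 lower of 12 (7 higher and 1 lower with a median of 0.42 under housekeeping scaling), and fatty acid synthesis genes 4 higher and 3 lower of 14 (10 higher and 1 lower with a median of 0.42 under housekeeping scaling). Cyclins, CDKs and CDK inhibitors had 5 higher and 8 lower of 18 (12 higher and 2 lower with a median of 0.45 under housekeeping scaling). Stem and cancer-associated epithelial genes had 7 higher and 8 lower of 19 (10 higher and 5 lower with a median of 0.36 under housekeeping scaling), and squamous and columnar transcription factors 5 higher and 5 lower of 15 (8 higher and 1 lower with a median of 0.39 under housekeeping scaling). Prom1, a membrane glycoprotein used as a stem cell marker, was at -2.61, and Sox9, a factor of progenitor and columnar cells, at 0.91.

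Genes of the sex chromosomes and of other cells differed as well. Xist, the RNA of the inactive X chromosome, had 1.29, 1.01 and 1.51 normalized CPM in vehicle organoids, against 0.0558 and 0.183 in set 1 and 0 and 0.135 in set 2 (log2 fold change 3.77 ± 0.58 (SE), adjusted p = 6.88e-04). The Y-linked Kdm5d had 29.1, 29.2 and 28.7 normalized CPM in vehicle organoids, against 18.4 and 20.01 in set 1 and 5.99 and 6.75 in set 2 (log2 fold change 1.19 ± 0.40 (SE), adjusted p = 0.0301), a call that was lost without vehicle library 1, 2 or 3 or set 2 library 2 (adjusted p = 0.0552 to 0.0762). Libraries of both groups thus held Y-linked transcripts, with set 2 lowest. Of genes that mark other cells, Flt1 of endothelium was at -3.42, Cnn1 of smooth muscle at -2.90, Cd79a of B cells at 2.37 and S100a9, of neutrophils and of stressed squamous epithelium, at 1.94. Rpph1, the RNA of RNase P, which has no poly(A) tail, was at 2.81.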
